A study of Homo sapiens with 12 samples.

Results

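The interleukin 6 (IL6) family was followed in HK-2 cells, an immortalised epithelial line from the human kidney proximal tubule, after exposure to the recombinant calcium-binding proteins S100A8 and S100A9. The 10 genes are 5 ligand genes (IL6, IL11, LIF, CLCF1 and EBI3), 4 receptor chain genes (IL6R, IL6ST, OSMR and LIFR) and SOCS3, a feedback inhibitor of the pathway. They were taken by symbol from the 20286 genes of the deposited expression table, and each symbol matched 1 Ensembl ID. All 10 were among the 13512 genes with enough counts to be tested. Poly(A) RNA was sequenced from wild-type HK-2 cells grown in DMEM with fetal bovine serum. Each of 4 groups held 3 libraries taken after 48 h: a PBS control, S100A8, S100A9, and S100A8/S100A9. The labels print the protein dose as 5 mg/mL for every treated group, and no second source was at hand to check that unit. Nothing in the labels ties the 3 libraries of a group to separate cultures, so every p-value here speaks only of the spread between libraries, which may be technical.

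IL6 family cytokines signal through receptor complexes that contain the shared chain gp130, which IL6ST encodes. IL6 and IL11 first bind their own receptor chains, IL6R and IL11RA, while LIF uses gp130 with LIFR, and oncostatin M uses gp130 with OSMR or LIFR. Bound receptors activate JAK kinases and the transcription factor STAT3, which in turn switches on SOCS3, and the SOCS3 protein binds gp130 and dampens the signal. In the kidney, tubule cells are known both to release IL6 and to respond to it, and S100A8 and S100A9 are known as alarmins that immune cells release at sites of damage.

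Library totals ran from 15882193 to 20748334 counts, and 3 counts, the limit that a count of 0 allows, equalled 0.145 to 0.189 CPM (counts scaled to a common library total), for counting error only. Levels are given as CPM after TMM scaling, with the mean ± SD over 3 libraries, and genes are compared with each other only in FPKM, the authors' values per gene length. Keratin genes were abundant in control libraries (KRT8 290 ± 2.86 and KRT18 172 FPKM), whereas the cell adhesion gene CDH1 stood at 0.897 ± 0.121 FPKM (SD, n = 3). Of 9 proximal tubule markers, 7 were under 1 FPKM in every group, among them LRP2, CUBN and AQP1, and the remaining pair, GGT1 and MME, stood at 28.1 and 21 FPKM in control. The leukocyte gene PTPRC did not exceed 0.02 FPKM in any library. Fewer cells that make a transcript and less transcript per cell cannot be told apart in these bulk libraries.

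For IL6, EBI3 and IL11, the bases before the start site are shown because IL6 was the family gene that changed, EBI3 was the other gene whose libraries separated in at least 4 of 6 comparisons, and IL11 is a ligand gene whose libraries overlapped in all 6. The sequences come from RefSeq promoter windows on GRCh38.p14, read 5′ to 3′ on the strand of the gene, and stop before the first GENCODE 29 exon that reaches into them. The IL6 stretch is chr7:22726950-22727146 (+), the EBI3 stretch chr19:4229273-4229497 (+) and the IL11 stretch chr19:55370464-55370713 (−). The EBI3 and IL11 stretches end just before their GENCODE genes start. The IL6 stretch precedes the RefSeq start site but lies inside the GENCODE gene, which starts upstream at chr7:22725884. Capitals mark letters that match a searched motif on either strand.

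IL6: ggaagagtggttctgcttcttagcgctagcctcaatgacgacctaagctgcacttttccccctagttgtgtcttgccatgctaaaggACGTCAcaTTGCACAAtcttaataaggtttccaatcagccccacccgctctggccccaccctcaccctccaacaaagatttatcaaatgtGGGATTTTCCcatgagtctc

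EBI3: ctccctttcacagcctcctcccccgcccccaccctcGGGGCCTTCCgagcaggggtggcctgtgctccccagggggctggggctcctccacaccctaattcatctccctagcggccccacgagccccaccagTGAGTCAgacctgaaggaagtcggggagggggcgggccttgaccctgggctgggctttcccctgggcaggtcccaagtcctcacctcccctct

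IL11: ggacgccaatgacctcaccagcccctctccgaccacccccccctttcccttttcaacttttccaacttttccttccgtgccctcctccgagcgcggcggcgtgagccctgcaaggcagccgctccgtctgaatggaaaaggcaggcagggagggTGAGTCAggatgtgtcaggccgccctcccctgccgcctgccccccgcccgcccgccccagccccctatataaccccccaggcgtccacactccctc

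The capitals in the IL6 stretch are, in order, ACGTCA (the cAMP response element half-site TGACGT on the opposite strand, at −163 to −158 from the start site), TTGCACAA (C/EBP, at −155 to −148) and GGGATTTTCC (kappa-B, at −73 to −64). In EBI3 they are a kappa-B match at −214 to −205 and an AP-1 match at −118 to −112, and in IL11 an AP-1 match at −96 to −90. Kappa-B, C/EBP and AP-1 motifs are bound by NF-kappaB, C/EBP and Fos/Jun proteins.

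RefSeq windows of 300 bases were held for 8 of the 10 genes, 11 windows in all, and LIF and CLCF1 had none. Among all 35116 windows, 11.3% held the kappa-B motif, 10.5% the C/EBP motif (TTGCNNAA), 7.98% TGACGT, 7.71% the AP-1 motif (TGANTCA) and 7.66% the STAT motif (TTCNNNGAA), on either strand. The kappa-B motif was found in 3 of the 11 family windows, those of IL6, EBI3 and IL6ST. C/EBP was matched in 3 (IL6, OSMR and 1 of 3 LIFR windows), AP-1 in 4 (EBI3, IL11, IL6R and OSMR), TGACGT in 1 (IL6) and STAT in 2, both of LIFR. Neither SOCS3 window held any of the 5 motifs. Matches in the family windows shared no bases with each other, and a match of letters is a description of the window, not a binding site.

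IL6, which encodes the founding cytokine of the family, was the 1 gene of the 10 that changed. It rose after S100A9 and did not pass the test after S100A8 or after S100A8/S100A9. The gene (ENSG00000136244) lies at chr7:22725884-22732002 on the plus strand of GRCh38. Its level was 6.07, 6.9 and 5.1 CPM in the 3 control libraries, and 15.9, 15.5 and 13 CPM after S100A9. After S100A8 the libraries stood at 8.39, 7.79 and 6.97 CPM, and after S100A8/S100A9 at 7.71, 9.57 and 6.96 CPM. The S100A9 libraries lay above all 9 others, and the share of tested genes with that separation was not counted. Against control alone, 6.25% of tested genes were higher without overlap. The libraries of S100A8 and S100A8/S100A9 overlapped each other and lay just above the controls.

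**Figure D1:**
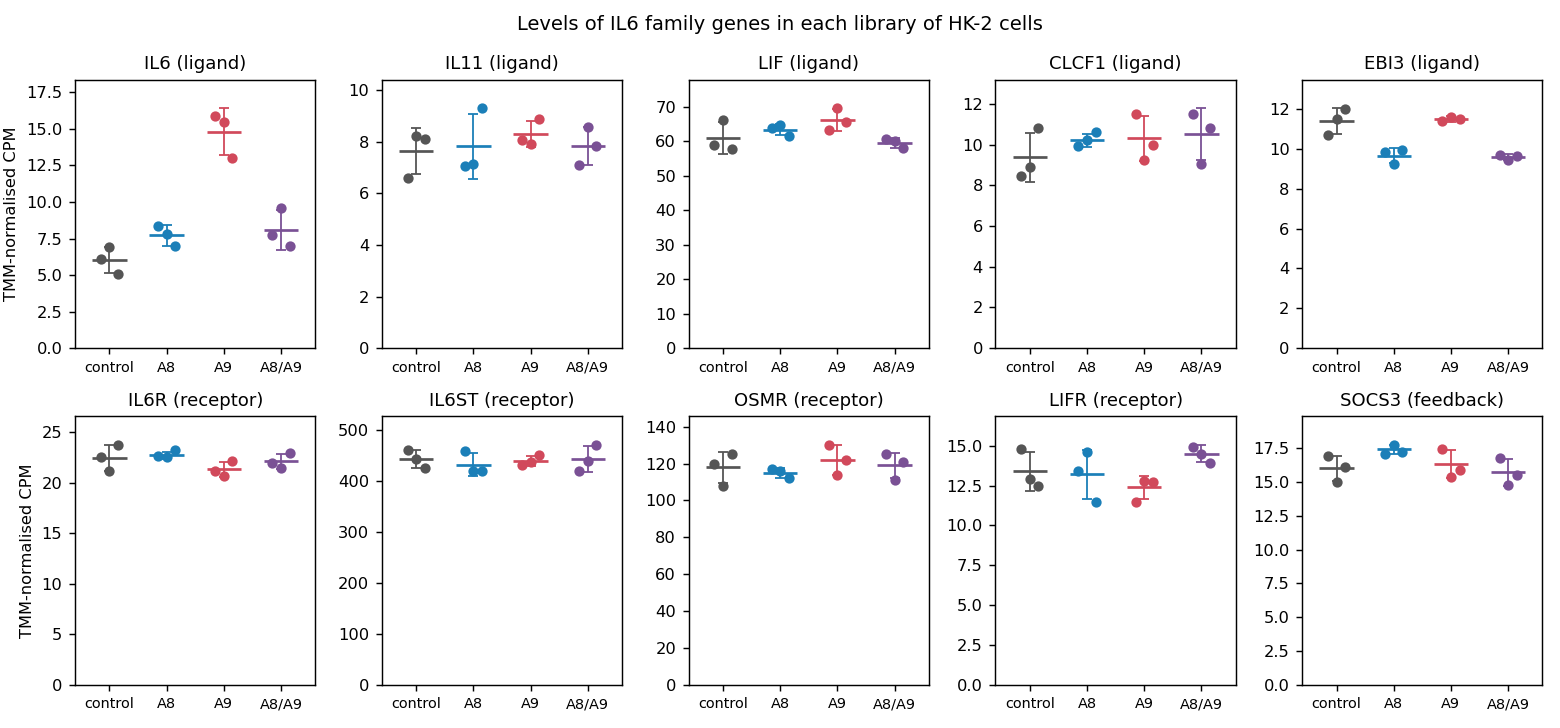
Levels of the 10 IL6 family genes in TMM-normalised CPM (y axes start at 0) for each library of the control, S100A8 (A8), S100A9 (A9) and S100A8/S100A9 (A8/A9) groups, with the mean as a line and the SD as error bars. IL6 stands at 13 to 15.9 CPM after S100A9 and at no more than 9.57 CPM in any other library, and the other 9 genes show smaller shifts.

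Against control, S100A9 took IL6 from 6.02 ± 0.9 to 14.8 ± 1.6 CPM (SD, n = 3), a log2 difference of 1.30 (SE 0.13, 95% interval 1.02 to 1.57, adjusted p = 1.8e-06, edgeR quasi-likelihood test). It was 1 of 10 family genes past the threshold of 0.05, beside 0.148% of all tested genes, and 0.141% that were higher. At an unadjusted p under 0.05 were 2 of the 10, IL6 and LIF, beside 5.85% of all tested genes. Over 14 alternative fits the difference ran from 1.19 to 1.40, with adjusted p from 1.7e-13 to 0.0028. In the same S100A9 libraries the summed level of 6 epithelial markers was 696 to 730 FPKM, against 752 to 764 in control, and all 6 had differences below 0 although 0 of 6 passed the test (edgeR; 2 had an unadjusted p under 0.05, and DESeq2 and limma called 0). CDH1, the lowest of them, was at 0.66 to 0.77 FPKM after S100A9, and the part of these markers in the IL6 result was not tested.

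With S100A8, IL6 averaged 7.72 ± 0.715 CPM (SD, n = 3), a log2 difference of 0.36 from control (95% interval 0.06 to 0.66, adjusted p = 1.00, edgeR). With S100A8/S100A9 it averaged 8.08 ± 1.34 CPM (SD, n = 3), a difference of 0.42 (95% interval 0.13 to 0.72, adjusted p = 0.77, edgeR). Neither passed in any of 14 alternative fits, where adjusted p was 0.93 or more for S100A8 and 0.21 or more for S100A8/S100A9. All 9 treated libraries lay above all 3 controls, a pattern read from these IL6 values that 0.503% of tested genes had. In FPKM that separation was lost for S100A8, whose lowest library (7.5) fell under the highest control (7.85), and kept for S100A8/S100A9, whose lowest library was at 8.67. The 3 comparisons use the same control libraries, so their differences are not independent of each other.

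The treated groups were also set against each other, which tests the difference between proteins directly. IL6 was higher after S100A9 than after S100A8 by 0.94 (95% interval 0.67 to 1.20, adjusted p = 0.0002, edgeR), where 0.185% of tested genes passed and 0.17% were higher. It was lower after S100A8/S100A9 than after S100A9, with a difference of −0.88 (95% interval −1.14 to −0.62, adjusted p = 0.00033, edgeR), where 0.252% passed and 0.222% were lower. Between S100A8/S100A9 and S100A8 the difference was 0.06 (95% interval −0.22 to 0.34, adjusted p = 0.99, edgeR). Both called differences failed (adjusted p = 1.00) when the test asked for a change of over 1.5-fold. In the comparison of S100A8/S100A9 with S100A9, the epithelial keratin gene KRT7 was also called, at 83.6 ± 4.76 CPM after S100A9 and 99.3 ± 4.05 CPM after S100A8/S100A9 (log2 difference 0.25, adjusted p = 0.013, edgeR). That call was lost without S100A9 replicate 2 (0.13) or 3 (0.16), without S100A8/S100A9 replicate 1 (0.057) or 2 (0.095), and in limma on FPKM (0.4). It was also lost with the 1.5-fold minimum. Of the 6 epithelial markers, 5 had differences above 0 in this comparison and 1, CDH1, below. CDH1 averaged 3.25 ± 0.273 CPM after S100A9 and 2.78 ± 0.704 CPM after S100A8/S100A9 (SD, n = 3). The summed epithelial markers were at 743 to 780 FPKM after S100A8/S100A9, and their part in the IL6 difference was not tested.

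**Figure D2:**
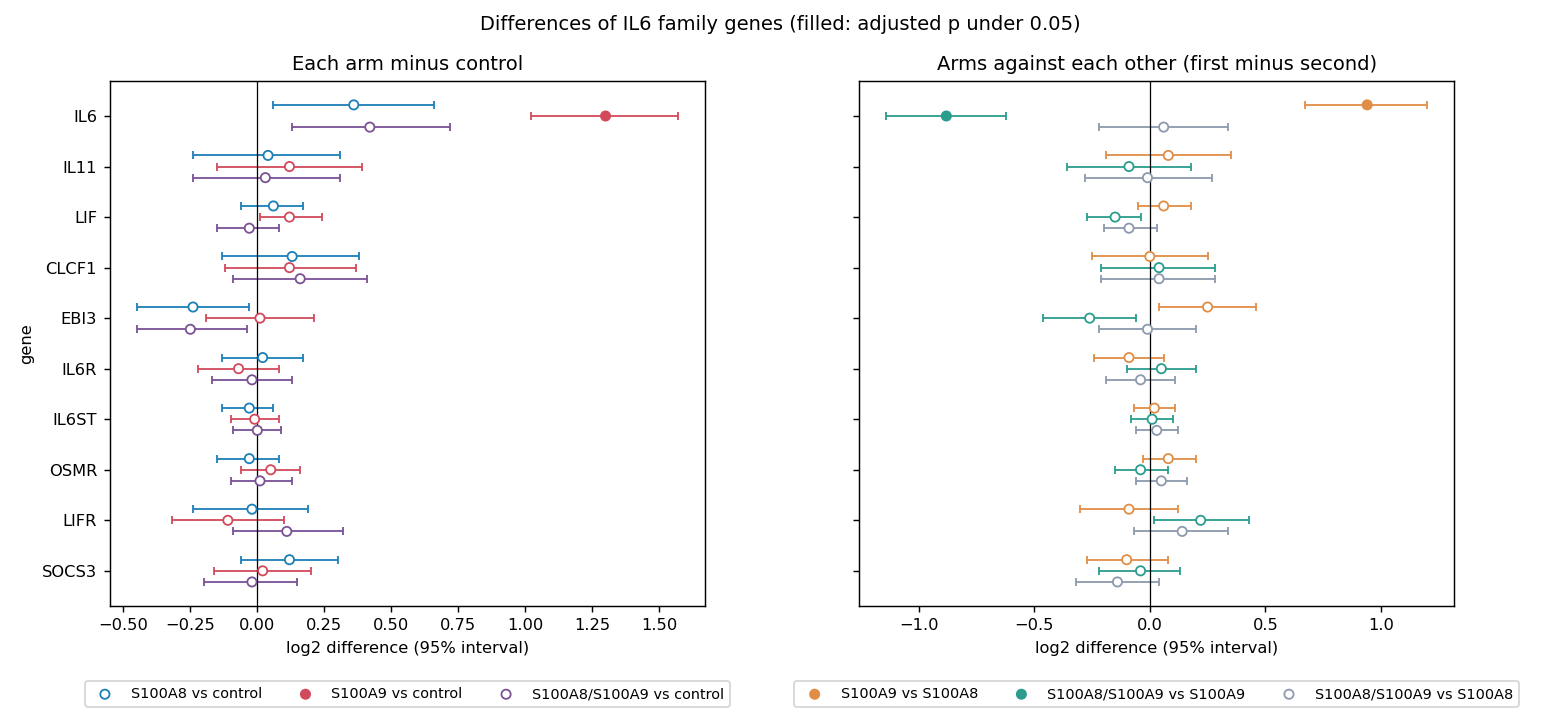
Log2 differences (x axes) of the 10 IL6 family genes with 95% intervals, each treated group minus control on the left and treated groups against each other on the right, with filled points where the adjusted p was under 0.05. IL6 holds the 3 filled points, at 1.30, 0.94 and −0.88.

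IL6 shares its locus with STEAP1B, a gene on the opposite strand that runs into the first part of IL6, and whether reads were counted by strand is not given in the sources used here. STEAP1B stood at 5.55 ± 0.295 CPM in control and at 5.39 ± 0.396 CPM after S100A9 (SD, n = 3), and its S100A9 range of 5.03 to 5.82 CPM lay across the control range of 5.37 to 5.89 CPM.

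EBI3 encodes a soluble subunit that pairs with other chains to form interleukin 27 and interleukin 35. The gene (ENSG00000105246) lies at chr19:4229498-4237531 on the plus strand. Control libraries held 10.7, 11.5 and 12 CPM and S100A9 libraries 11.4, 11.6 and 11.5 CPM. The libraries treated with S100A8 held 9.85, 9.25 and 9.93 CPM, and those treated with S100A8/S100A9 held 9.7, 9.46 and 9.63 CPM. Every library of S100A8 and of S100A8/S100A9 thus lay below every control and every S100A9 library, in CPM and in FPKM alike. In CPM 0.178% of tested genes had that order, which was taken from the EBI3 values themselves, so this share is no test of EBI3. Against control alone, 4.13% of tested genes were lower without overlap after S100A8 and 5.4% after S100A8/S100A9.

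No EBI3 difference passed the test. It was −0.24 for S100A8 against control (95% interval −0.45 to −0.03, adjusted p = 1.00, edgeR) and −0.25 for S100A8/S100A9 against control (95% interval −0.45 to −0.04, adjusted p = 0.84, edgeR). For S100A9 against S100A8 it was 0.25 (adjusted p = 0.59, edgeR), and for S100A8/S100A9 against S100A9 it was −0.26 (adjusted p = 0.58, edgeR). S100A9 and control differed by 0.01 (95% interval −0.19 to 0.21).

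LIF, the leukemia inhibitory factor gene (ENSG00000128342, chr22:30240447-30246851, minus strand), held 58.8, 66.2 and 57.8 CPM in control and 63.4, 69.5 and 65.5 CPM after S100A9. It held 63.7, 64.7 and 61.5 CPM after S100A8 and 60.7, 60 and 57.9 CPM after S100A8/S100A9. The S100A9 libraries overlapped the controls, and those of S100A8/S100A9 lay below all S100A9 and all S100A8 libraries, as 6.53% and 4.55% of tested genes did. In FPKM the libraries of S100A8/S100A9 (22.4 to 23.8) overlapped those of both other treated groups. The difference from control was 0.12 for S100A9 (95% interval 0.01 to 0.24, adjusted p = 0.82, edgeR), and that of S100A8/S100A9 from S100A9 was −0.15 (95% interval −0.27 to −0.04, adjusted p = 0.54, edgeR).

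IL11 encodes a cytokine that signals through IL11RA and gp130 (ENSG00000095752, chr19:55364389-55370463, minus strand). Its group means ran from 7.64 ± 0.904 CPM in control to 8.3 ± 0.52 CPM after S100A9 (SD, n = 3), and its libraries overlapped in every comparison. The difference between S100A9 and control was 0.12, with a 95% interval of −0.15 to 0.39. CLCF1 encodes cardiotrophin-like cytokine factor 1 (ENSG00000175505, chr11:67364168-67374177, minus strand) and averaged 9.37 ± 1.22 CPM in control and 10.2 to 10.5 CPM in the treated groups. Its differences from control were 0.12 to 0.16, and all 3 intervals included 0. CLCF1 overlaps RAD9A on the opposite strand and AP003419.1 on the same strand, and AP003419.1 varied from 0.463 to 4.74 CPM between libraries, so the split of reads at this locus is uncertain.

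Per gene length, LIF led the ligands in control at 23.1 ± 1.86 FPKM, followed by EBI3 at 9.88 ± 0.563, IL6 at 7.1 ± 0.979, CLCF1 at 5.51 ± 0.72 and IL11 at 3.87 ± 0.649 FPKM (SD, n = 3). Of neighbours in that order, the libraries of IL6 and CLCF1 overlapped. After S100A9, IL6 stood second at 18.1 ± 2.57 FPKM, between LIF at 23.5 ± 0.53 and EBI3 at 9.9 ± 0.117 FPKM (SD, n = 3), with no overlap to either. IL6 was also second after S100A8, at 9.37 ± 2.06 FPKM, where it overlapped EBI3 at 8.38 ± 0.313 FPKM. After S100A8/S100A9 it was second at 9.29 ± 0.991 FPKM and lay above all EBI3 libraries (8.25 ± 0.0874 FPKM). LIF was the most abundant of the 5 ligand transcripts in all 4 groups.

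**Figure D3:**
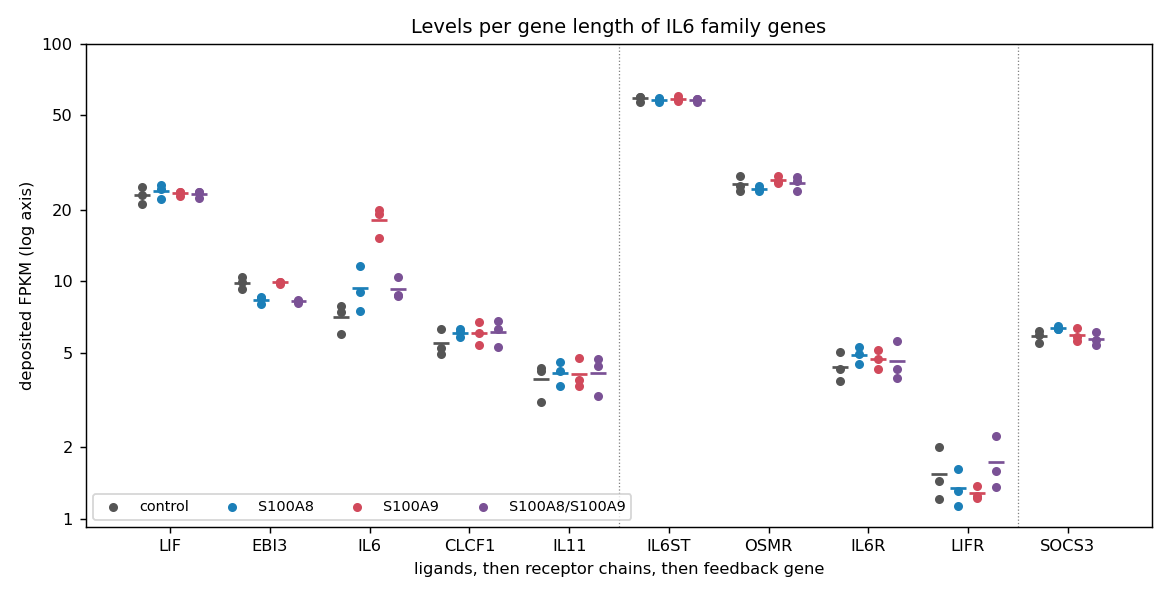
Deposited FPKM (log axis) of each library for the ligand genes, the receptor chain genes and SOCS3 in the 4 groups, with group means as lines. IL6 moves from 7.1 FPKM in control, below EBI3, to 18.1 FPKM after S100A9, between EBI3 and LIF, while IL6ST stays near 59 FPKM.

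The 4 receptor chain genes kept 1 order in all groups and their libraries did not overlap. IL6ST, the gene of gp130 (ENSG00000134352, chr5:55935095-55994993, minus strand), stood at 59 ± 1.65 FPKM in control, and OSMR, the oncostatin M receptor gene (ENSG00000145623, chr5:38845858-38945596, plus strand), at 25.7 ± 1.9 FPKM. IL6R, the gene of the chain that binds IL6 (ENSG00000160712, chr1:154405193-154469450, plus strand), stood at 4.38 ± 0.625 FPKM, and LIFR, the LIF receptor gene (ENSG00000113594, chr5:38474963-38608354, minus strand), at 1.55 ± 0.412 FPKM (SD, n = 3). The cells thus held more transcript per length for the shared chain than for any of the 3 others.

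In 6 comparisons, 0 of the 24 receptor gene tests passed, beside 0% to 0.252% of all tested genes by comparison (edgeR). DESeq2 and limma called 0. At an unadjusted p under 0.05 was 1 of the 24, beside 3.53% to 7.15% of tested genes. IL6ST libraries held 462, 444 and 427 CPM in control, 460, 420 and 421 after S100A8, 433, 437 and 451 after S100A9, and 420, 440 and 471 after S100A8/S100A9. The groups overlapped throughout, and its difference from control was −0.01 for S100A9, with a 95% interval of −0.10 to 0.08. For IL6R the values were 22.5, 21.1 and 23.7 CPM in control and 21.1, 20.7 and 22.1 CPM after S100A9, a difference of −0.07 (95% interval −0.22 to 0.08). IL6R held 22.6, 22.5 and 23.2 CPM after S100A8 and 21.9, 21.4 and 22.9 CPM after S100A8/S100A9. S100A9 differed from S100A8 by −0.09 (95% interval −0.24 to 0.06, adjusted p = 0.85, edgeR). OSMR averaged 118 ± 8.51 CPM in control and 122 ± 7.99 CPM after S100A9 (SD, n = 3), a difference of 0.05 (95% interval −0.06 to 0.16). It averaged 115 ± 2.6 CPM after S100A8 and 119 ± 7.03 CPM after S100A8/S100A9 (SD, n = 3), and it overlaps RICTOR on the opposite strand.

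LIFR was the 1 receptor gene with an unadjusted p under 0.05. Its libraries held 11.5, 12.8 and 12.7 CPM after S100A9 and 14.9, 14.5 and 13.9 CPM after S100A8/S100A9. These groups did not overlap, and 5.94% of tested genes were likewise higher without overlap in that comparison. In FPKM they overlapped, at up to 1.38 after S100A9 and down to 1.36 after S100A8/S100A9. The difference was 0.22 (95% interval 0.02 to 0.43, adjusted p = 0.66, edgeR). Control libraries, at 14.8, 12.9 and 12.5 CPM, overlapped both. In the comparison of S100A8/S100A9 with S100A9, 4 of the 10 family genes (IL6, EBI3, LIF and LIFR) had an unadjusted p under 0.05, beside 7.15% of tested genes.

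SOCS3 (ENSG00000184557, chr17:78356778-78360077, minus strand) held 16.9, 15 and 16.1 CPM in control and 17.4, 15.4 and 15.9 CPM after S100A9. It held 17.1, 17.7 and 17.2 CPM after S100A8 and 16.8, 14.8 and 15.5 CPM after S100A8/S100A9. The S100A8 libraries lay just above the controls, as 4.41% of tested genes did, and the S100A9 libraries overlapped the controls. The S100A8/S100A9 libraries lay below the S100A8 libraries, as 4.55% of tested genes did, with a difference of −0.14 (95% interval −0.32 to 0.04, adjusted p = 0.98, edgeR). The difference from control was 0.02 for S100A9 (95% interval −0.16 to 0.20), 0.12 for S100A8 (95% interval −0.06 to 0.30, adjusted p = 1.00, edgeR) and −0.02 for S100A8/S100A9 (95% interval −0.20 to 0.15).

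Over the 10 genes, the median log2 difference from control was 0.03 for S100A9, 0.03 for S100A8 and 0.01 for S100A8/S100A9, against medians of −0.00, 0.00 and −0.00 over all tested genes. No family gene passed in S100A8 against control, where 0.0074% of all tested genes did, or in S100A8/S100A9 against control, where 0% did. In each of these comparisons IL6 and EBI3 had an unadjusted p under 0.05, beside 3.53% and 5.6% of tested genes, and DESeq2 and limma called 0 of the 10. In S100A8/S100A9 against S100A8 none of the 10 passed by any of the 3 tools, none had an unadjusted p under 0.05 (4.43% of tested genes did), and 0% of all tested genes passed in edgeR.

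The other genes of the pathway were read from 5 lists. Of 13 other ligands, receptor chains and receptor-shedding proteases, 8 could be tested, and OSM, CTF1, IL27, IL31 and CNTFR were under the filter on low counts. The most abundant in control were the proteases ADAM10 and ADAM17, which can cut membrane receptors such as IL6R, at 106 ± 2.79 and 29 ± 0.516 FPKM, and IL27RA, an interleukin 27 receptor chain, at 8.51 ± 0.384 FPKM (SD, n = 3). IL27 and IL31 were listed at 0 in every control library, and OSM at 0 in 2 of 3 with 0.06 FPKM in the other. IL11RA, the partner of IL11, stood at 0.673 ± 0.0153 FPKM. For S100A9 against control, 0 of 8 passed, beside 0.148% of all tested genes (edgeR, and DESeq2 and limma called 0). At an unadjusted p under 0.05 were 0 of the 8, beside 5.85%, and their median difference was −0.00.

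Of 13 JAK-STAT transducers, 0 passed for S100A9 against control, beside 0.148% of tested genes (edgeR, and DESeq2 and limma called 0). At an unadjusted p under 0.05 was 1 of the 13, beside 5.85%, and their median difference was −0.01. Among its abundant transcripts in control, the phosphatase and adaptor gene PTPN11 stood at 95.3 ± 1.71 and the kinase gene JAK1 at 75.6 ± 3.02 FPKM (SD, n = 3). JAK1, with the smallest p of the list, averaged 352 CPM in control and 383 CPM after S100A9 (log2 difference 0.12, 95% interval 0.04 to 0.20, adjusted p = 0.46, edgeR). STAT3, named here for its place in the pathway, averaged 116 CPM in both groups.

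Among 16 feedback inhibitors, which include SOCS, PIAS and phosphatase genes, 0 passed, beside 0.148% of tested genes (edgeR, and DESeq2 and limma called 0). At an unadjusted p under 0.05 was 1 of the 16, beside 5.85%, and the median was −0.04. The phosphatase genes PTPN1, DUSP1 and PTPN2 were the most abundant in control, at 40.9 ± 0.45, 32.9 ± 0.714 and 15.8 ± 1.18 FPKM (SD, n = 3). Of 35 STAT3 target genes, 26 could be tested and 0 passed, beside 0.148% of tested genes (edgeR, and DESeq2 and limma called 0). At an unadjusted p under 0.05 were 5 of these 26, beside 5.85% of all tested genes. The median of the 26 was 0.05, and their differences ran from −0.44 to 0.48. Above 0 were 65.4% of them, against 49.9% of all tested genes. HIF1A, BCL2L1 and MYC led this list in control at 455 ± 14.4, 158 ± 6.98 and 116 ± 4.76 FPKM (SD, n = 3). These 3 are named for their level, not for their change, and differed between S100A9 and control by 0.02, 0.06 and 0.04. The 9 targets under the filter were acute phase or other liver genes such as CRP, FGA, FGG and HAMP.

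Regulators of the IL6 gene and of its mRNA were the list with calls: 2 of 21 rose after S100A9, beside 0.141% of all tested genes, and the median was 0.04. At an unadjusted p under 0.05 were 5 of the 21, beside 5.85% of tested genes, and DESeq2 called 2 and limma 1. ZC3H12A encodes Regnase-1, an RNase that degrades IL6 mRNA, and ZC3H12C encodes a related protein. ZC3H12A held 8.64, 9.9 and 9.18 CPM in control and 13.6, 14.9 and 13.8 CPM after S100A9, and the groups did not overlap. Its difference was 0.61 (SE 0.10, adjusted p = 0.0044, edgeR), and without the first control replicate it was 0.56 with an adjusted p of 0.059. ZC3H12C held 59.3, 59.7 and 60.9 CPM in control and 72.9, 70.6 and 75.6 CPM after S100A9. Its difference was 0.28 (SE 0.05, adjusted p = 0.016, edgeR). The call was lost without control replicate 1 (adjusted p = 0.14), control replicate 2 (0.099), S100A9 replicate 1 (0.061) or S100A9 replicate 3 (0.23), and in limma on FPKM (0.56). Neither ZC3H12A nor ZC3H12C passed with the 1.5-fold minimum.

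Both genes were also higher after S100A9 than after S100A8, by 0.49 for ZC3H12A (adjusted p = 0.038, edgeR) and 0.31 for ZC3H12C (adjusted p = 0.0048, edgeR). Both were lower after S100A8/S100A9 than after S100A9, with differences of −0.57 (adjusted p = 0.007, edgeR) and −0.28 (adjusted p = 0.013, edgeR). For ZC3H12A against S100A8 the call was lost without any 1 of the 6 libraries (adjusted p 0.07 to 0.21). It was also lost in DESeq2 (0.053) and in the fit of the 6 libraries alone (0.057). ZC3H12C lost it without S100A8 replicate 3 (0.097) or S100A9 replicate 3 (0.088). In S100A8/S100A9 against S100A9, ZC3H12A lost it without S100A9 replicate 2 (0.074) or S100A8/S100A9 replicate 3 (0.089), and ZC3H12C without S100A9 replicate 3 (0.16) or S100A8/S100A9 replicate 1 (0.13). In limma on FPKM neither gene passed in these comparisons (adjusted p 0.081 to 0.46), and neither passed with the 1.5-fold minimum. The most abundant regulators in control, KHSRP, ZFP36L1 and ATF4 at 210 ± 6.49, 196 ± 12.1 and 178 ± 7.29 FPKM (SD, n = 3), differed between S100A9 and control by 0.04, 0.07 and 0.01.

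For S100A8 and for S100A8/S100A9 against control, 0 genes of these 5 lists passed in edgeR, DESeq2 or limma. Over all tested genes, 0.0074% and 0% passed in edgeR. At an unadjusted p under 0.05 the STAT3 targets held 1 gene of 26 for S100A8 and 2 for S100A8/S100A9, beside 3.53% and 5.6% of tested genes. They held 8 of 26 in S100A9 against S100A8, beside 946 of 13512 tested genes. In S100A8/S100A9 against S100A9 they held 4 of 26, beside 7.15%. In both of these comparisons 0 STAT3 targets passed in edgeR, DESeq2 or limma, beside 0.185% and 0.252% of tested genes in edgeR.

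**Figure D4:**
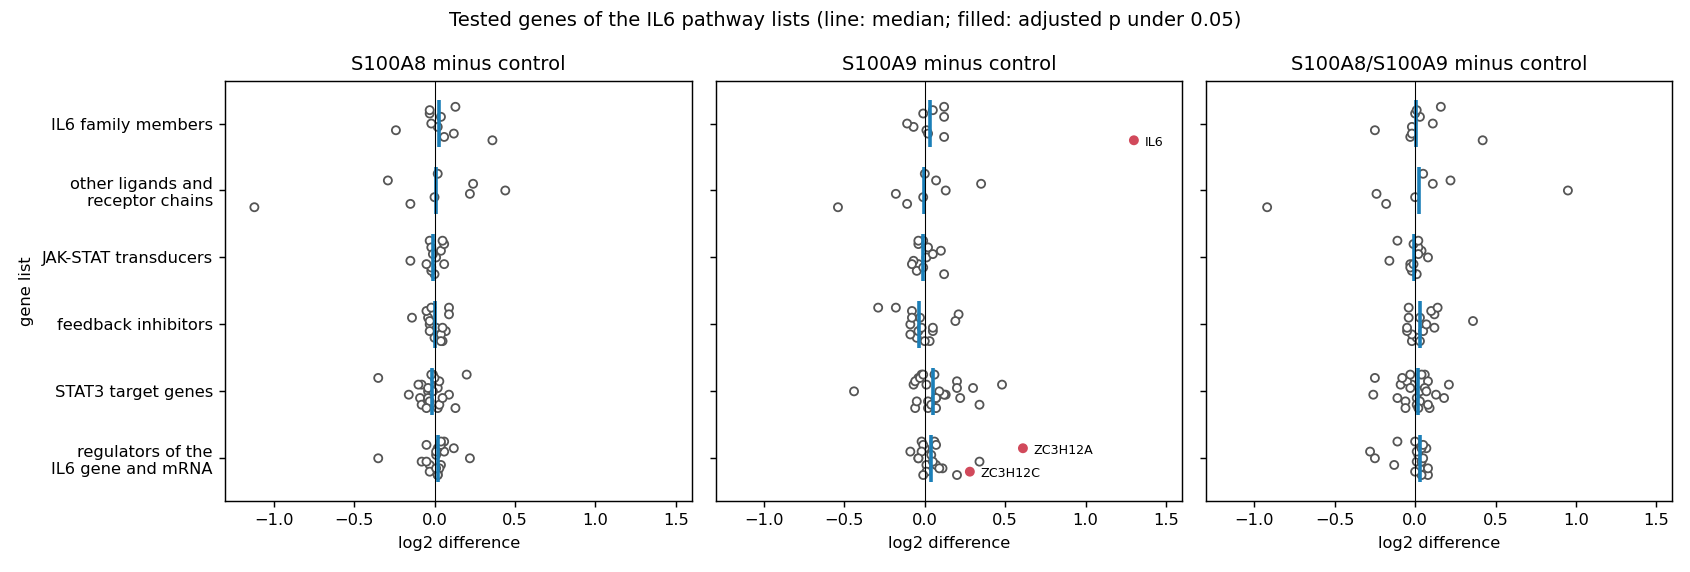
Log2 difference from control (x axis) of every tested gene in the IL6 family and the 5 other pathway lists, for the 3 treated groups, with list medians as lines and filled points where the adjusted p was under 0.05. The filled points, IL6 (1.30), ZC3H12A (0.61) and ZC3H12C (0.28), are all in S100A9 minus control, and every list median lies within 0.05 of 0.

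Genes with a pattern like that of IL6 were ranked by the mean absolute difference between z-scored log2 CPM over the 12 libraries, among 12760 genes with a mean of at least 1 CPM. The 6 nearest were SAA1 (0.313), CXCL8 (0.319), ZC3H12A (0.342), STARD7 (0.357), CSF2 (0.357) and SOD2 (0.358), where the median over all genes compared was 1.112. SAA1 encodes an acute phase protein, CXCL8 a neutrophil chemokine, CSF2 the growth factor GM-CSF, SOD2 the mitochondrial superoxide dismutase and STARD7 a lipid transfer protein. Of the family genes, LIF was nearest at 0.606 (rank 174), followed by EBI3 at 0.925, OSMR at 0.996 and IL11 at 1.017, and IL6R was farthest at 1.469.

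The 6 genes were picked for likeness to IL6, so their high levels in the S100A9 libraries follow from that choice. In the other groups they were close to control. CXCL8 averaged 34 ± 1.84 CPM in control, 33.5 ± 1.42 after S100A8, 85.3 ± 12.6 after S100A9 and 35.1 ± 3.69 after S100A8/S100A9 (SD, n = 3). CSF2 averaged 2.69 ± 0.316, 3.15 ± 0.641, 7.47 ± 0.386 and 2.66 ± 0.205 CPM in the same order. SAA1 was at 0.473 ± 0.0563 CPM in control and 3.03 ± 0.205 CPM after S100A9, and reads may be split between it and its near-identical neighbour SAA2. In the other 3 groups SAA1 averaged under 1 CPM, so it entered the ranking only through the S100A9 libraries. STARD7 went from 159 ± 1.99 CPM in control to 176 ± 3.21 CPM after S100A9 (SD, n = 3) and did not pass the test (log2 difference 0.14, adjusted p = 0.25, edgeR). The likeness rests on the S100A9 libraries: without those 3 libraries 0 of these 6 were among the 6 nearest. With FPKM in place of CPM, 3 of the 6 were among the nearest.

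**Figure D5:**
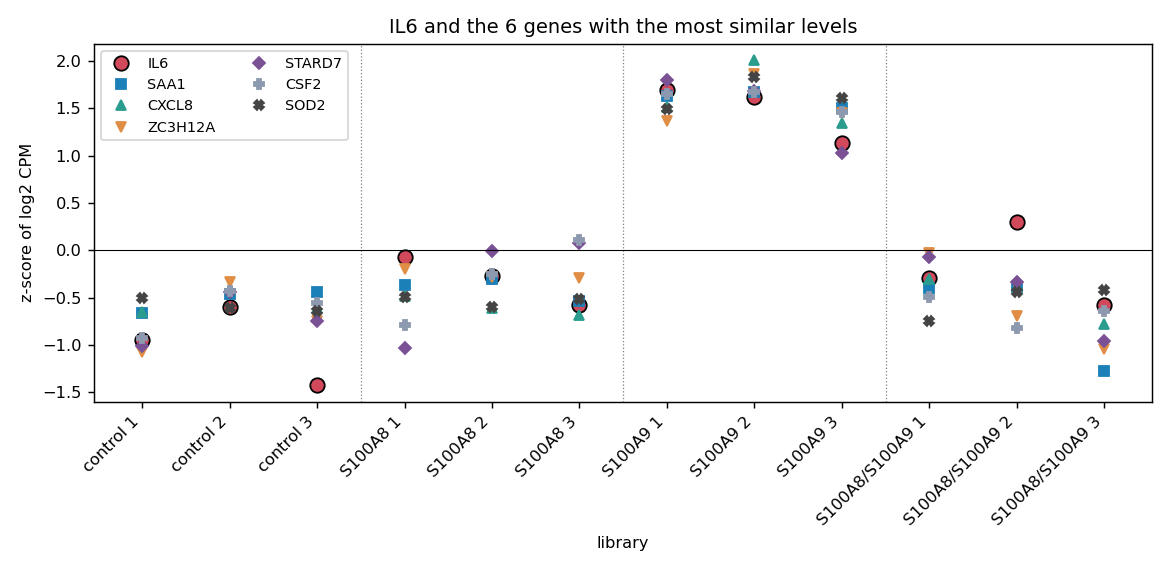
Z-scored log2 CPM (y axis) of IL6 and the 6 genes nearest to it in each of the 12 libraries (x axis). All 7 genes lie above 1 in the 3 S100A9 libraries and below 0.5 in the other 9.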

How the data were processed

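Poly(A) RNA from 12 HK-2 libraries was sequenced on an Illumina instrument, per the labels' protocols. The authors deposited 1 table with an expected count (an estimated number of reads that need not be whole) and an FPKM value for each gene and library, per the file headers. Of the deposited counts, 12% were not whole. FPKM is the authors' own scaling to gene length and library total, and its ratio to the counts differed between libraries for some genes. Which aligner, counter, annotation and strand setting were used is not given in the sources used here. All 20286 IDs are human Ensembl IDs, although GRCm38 and mm10, both mouse builds, are the ones listed per the submitters' processing notes, so the build behind the counts is not known. Symbols came from a gene name table (19717 IDs) and GENCODE release 29 (521), 48 IDs had no name, and gene coordinates are those of GENCODE on GRCh38.

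The main test, on rounded expected counts, was that of edgeR 4.0.16 under R 4.3.3: filterByExpr with a minimum count of 10 (13512 genes left), TMM scaling and a robust quasi-likelihood fit over the 12 libraries, with a coefficient for each group, without a block and with 8 residual degrees of freedom. Two-sided p-values were adjusted by Benjamini-Hochberg over all tested genes in each of 6 comparisons, at a threshold of 0.05. Intervals (95%) come from the t distribution behind that test. No group held libraries that differed by less than sampling noise, and library totals of 15882193 to 20748334 counts set the precision. Floors and intervals cover counting error or library spread only, as no source names molecular identifiers in the reads.

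The 10 genes and all gene lists were chosen with earlier results of these data known. All 10 are named, and of the other lists those genes past the threshold in any comparison and the highest 3 by control FPKM, with any other gene said to be chosen after its values were seen. Of the genes this rule selects, 1 is not reported here. The 6 genes most like IL6 were ranked on log2 CPM (prior count 2). Marker lists covered epithelium (6 genes), proximal tubule (9), leukocytes (8), endothelium (5) and fibroblasts (7). Of these, 7 of 8 leukocyte, 5 of 5 endothelial and 5 of 7 fibroblast markers were under 1 FPKM in control, with CD68 (62.7 FPKM) and LUM (33.8 FPKM) the highest. Alternatives were a replicate block, DESeq2 size factors, no filter on low counts, the DESeq2 1.42.0 Wald test, fits of the 6 libraries of a comparison alone, no robust option, limma 3.58.1 on log2(FPKM + 1), a 1.5-fold minimum and the removal of single libraries. The fit was tested on simulated counts before use.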

Additional observations from a re-analysis of the deposited data

How the results depend on the processing

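Of 840 alternative fits over 60 pairs of a family gene and a comparison, 838 kept their side of the threshold and none reversed a call. The other 2 were of IL6, lost in S100A9 against S100A8 and in S100A8/S100A9 against S100A9 with a minimum change of 1.5-fold, so that 0 family genes were called there. Most of the 838 had no call to lose, as the main fit called IL6 alone. IL6 passed in 14 of 14 alternatives in S100A9 against control. It passed in 13 of 14 in S100A9 against S100A8 and in 13 of 14 in S100A8/S100A9 against S100A9. Differences that passed in neither fit changed sign in 56 cases. Leaving out single libraries moved IL6 between 1.19 and 1.40 in S100A9 against control, 0.87 and 1.03 against S100A8, and −1.01 and −0.78 in S100A8/S100A9 against S100A9. The count of genes called over the whole table moved more. With the replicate number as a block it was 42 in place of 20 in S100A9 against control, 2 in place of 1 for S100A8, 2 in place of 0 for S100A8/S100A9, 69 in place of 25 in S100A9 against S100A8 and 71 in place of 34 in S100A8/S100A9 against S100A9. The main fit did not pair libraries by number, although libraries with the same number were somewhat more alike. Their 18 pairs correlated at −0.074 to 0.151 (median 0.054) in deviations from group means, with 2 over 0.1. The 36 other pairs correlated at −0.158 to 0.095 (median −0.011), and 9 of 12 libraries were closest to one with their own number. What the numbers stand for was not tested. The block changed no call of a family gene. With limma on log2(FPKM + 1) the counts were 12, 0, 10 and 13 in S100A9 against control, S100A8 against control, S100A9 against S100A8 and S100A8/S100A9 against S100A9, and with the 1.5-fold minimum 9, 0, 7 and 8. DESeq2 called 1 gene in S100A8/S100A9 against control and 2 in S100A8/S100A9 against S100A8. With only the 6 libraries compared, 0 were called for S100A8 and 2 for S100A8/S100A9 against control, and without the robust option 0 for S100A8. Leaving out single libraries gave 11 to 22 genes in S100A9 against control (control replicates 1 and 2 left out gave 12 and 11, S100A9 replicate 3 gave 13). It gave 0 to 2 for S100A8 and 0 to 2 for S100A8/S100A9 against control (control replicate 1 left out gave 2 in both, and for S100A8 control replicate 2 and S100A8 replicates 1 and 2 gave 0 each). It gave 14 to 24 in S100A9 against S100A8 (S100A8 replicate 2 or S100A9 replicate 3 left out gave 14) and 14 to 31 in S100A8/S100A9 against S100A9 (S100A9 replicates 2 and 3 left out gave 16 and 15, S100A8/S100A9 replicates 1 and 3 gave 14 and 19). The cause was not tested. The match of TGACGT in IL6 is on the reverse strand and is absent when 1 orientation is searched (0 windows). With 3 libraries per group, the 95% intervals against control reach 0.39 on the log2 scale for IL11 and 0.41 for CLCF1.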

Other observations

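The ratio of the deposited counts to the deposited FPKM gives an implied gene length, and for some family genes it varied between libraries. It spanned 6.42 to 10.3 kb for LIFR, 3.88 to 5.57 kb for IL6R, 1.68 to 2.21 kb for IL11 and 0.727 to 0.931 kb for IL6, a highest over lowest ratio of 1.61, 1.43, 1.32 and 1.28. For EBI3 and SOCS3 the ratio was 1. FPKM and CPM can therefore order libraries of LIFR, IL6R, IL11 and IL6 differently.

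SERPINA1 and NFKBIZ, a STAT3 target and a regulator of IL6 transcription, were chosen after their values were seen. SERPINA1 differed by 0.30 between S100A9 and control (adjusted p = 0.19, edgeR) and passed only with the replicate block (0.037). It differed by 0.34 between S100A9 and S100A8 (0.083, edgeR) and by −0.33 between S100A8/S100A9 and S100A9 (0.079, edgeR). The former passed with the block (0.0076), without the filter (0.022) and without S100A8 replicate 1 (0.0034), and in no other alternative. The latter passed with the block (0.0085), without the filter (0.029) and on the 6 libraries alone (0.041), and in no other. NFKBIZ differed by −0.20 between S100A8/S100A9 and S100A9 (adjusted p = 0.079, edgeR), and DESeq2 called it (adjusted p = 0.041), the 1 regulator beyond ZC3H12A and ZC3H12C among its 3 calls there. Adjusted p ranged from 0.0076 with the replicate block to 1.00 with the 1.5-fold minimum.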
